A study of Mus musculus with 6 samples.

Results

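The dystrophin glycoprotein complex was followed through 8 of its genes, found by symbol among the 16759 genes listed for hind leg muscle: Dmd, Utrn, Dag1, Sgca, Sgcb, Sgcd, Dtna and Nos1. All 8 were measured and all 8 passed the filter on low values. The study set 3 control (Con) mice beside 3 exercise (EX) mice, with 1 RNA library from each mouse. All were male C57BL/6J mice aged 8 weeks at the start, and the labels name no transgene or other agent in either group. EX mice ran on a treadmill for 60 min a session, 5 sessions a week, for 6 weeks, covering 22 km each, while Con mice did no treadmill running. EX mice were killed 24 h after their last session, and the time for Con mice is not given separately. Bodies were perfused with PBS, fat between the muscles was taken out, and a piece of muscle about as large as a soybean was kept for RNA, with no individual muscle named. The comparison asks how weeks of moderate training went with the transcripts of this complex.

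Dystrophin is a long rod of a protein that binds actin inside the muscle fibre and dystroglycan in the membrane, and dystroglycan binds laminin outside. Sarcoglycans brace dystroglycan in the membrane, while dystrobrevin, syntrophins and neuronal nitric oxide synthase sit on the inner face. Utrophin is the close relative of dystrophin that is concentrated at the neuromuscular junction in adult muscle and is also made by vessels and nerve. Loss of dystrophin or of a sarcoglycan causes muscular dystrophy, in which contraction tears the membrane.

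In EX muscle the utrophin transcript was lower by 25.4%, the beta-sarcoglycan transcript was higher by 11.7%, and the other 6 members did not pass the test. Dystrophin itself was 79.9 ± 2.47 CPM (SD, n = 3) in Con and 79.1 ± 1.6 CPM in EX. Thus 1 of 8 members was higher and 1 of 8 was lower, beside 9.11% and 8.80% of all 10883 genes tested, and 17.9% in either direction. The share of members that passed is therefore near the background of this comparison. The median log2 fold change of the members was -0.02, with 0.00 for all genes, and the median size was 0.08, with 0.10 for all genes. CPM are counts scaled by TMM normalization to a common library size, and adjusted p-values come from the quasi-likelihood test of edgeR, adjusted by Benjamini-Hochberg over all genes tested and called at 0.05.

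Libraries held between 13845362 and 16240431 counts on genes, and a count of 0 allows up to 3 counts, or 0.185 to 0.217 CPM before TMM scaling, for counting error only. The 7 fibre markers summed to 104807.1 to 112483.4 CPM in Con and 117340.1 to 123274.2 CPM in EX, so the labelled tissue was present in every library. Slow-fibre genes set the groups apart. All 7 on the slow-fibre list were called higher in EX, beside 9.11% of all genes tested. Their sum was 99.4 to 104.7 CPM in Con and 350.6 to 376.7 CPM in EX. Myh7, the slow myosin heavy chain, was 1.0 ± 0.163 CPM in Con and 102.2 ± 7.38 CPM in EX. Whether a different mix of muscles in the pieces had a part in the member values was not tested.

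The long proteins that carry the actin link come first. Dmd (gene 13405) was at 78.2, 78.8 and 82.7 CPM in Con 1 to 3 and at 80.5, 77.4 and 79.5 CPM in EX 1 to 3. The groups overlapped, and no library stood apart. The log2 fold change of EX over Con was -0.01 (95% interval -0.11 to 0.08, edgeR adjusted p = 0.87). That interval leaves room for a fall or a rise of the dystrophin transcript of the size of its bounds, so equality is not shown.

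Utrn (22288) was at 52.5, 49.1 and 49.6 CPM in Con and at 38.6, 36.6 and 37.5 CPM in EX. Every EX library lay under every Con library, and the spread within each group was small against the gap. These levels rest on 732, 772 and 791 counts in Con and 612, 575 and 591 counts in EX. The log2 fold change was -0.42 (standard error 0.05, 95% interval -0.53 to -0.31, edgeR adjusted p = 9.8e-07). In muscle tissue as a whole, fewer cells of a type and less RNA per cell cannot be told apart. Utrn fell in each of the 16 alternative fits, between -0.45 and -0.37.

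**Figure D1:**
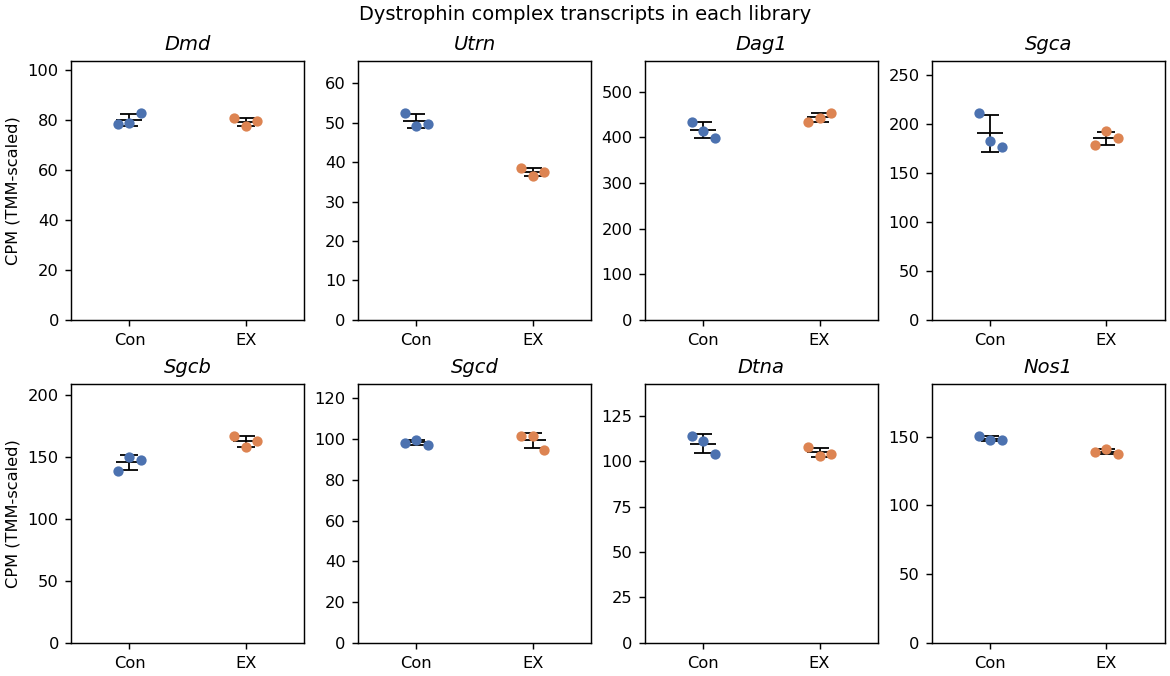
TMM-scaled CPM (vertical axes, from 0) of the 8 complex genes in the 3 Con (blue) and 3 EX (orange) libraries, with points for mice and black bars for the mean ± SD. Utrn in EX, at 36.6 to 38.6 CPM, lies wholly under Con, and Sgcb in EX, at 158.5 to 167.3 CPM, wholly above it.

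Markers of the other cells that make utrophin moved as well. The sum over 8 endothelial markers was 710.8 to 724.6 CPM in Con and 624.0 to 644.1 CPM in EX, with 4 called lower and 1 higher. The 6 smooth muscle and pericyte markers summed to 827.9 to 851.3 CPM in Con and 678.5 to 706.6 CPM in EX, with 3 called lower and 1 (Acta2) higher. Most of that sum was the pericyte marker Rgs5, and the other 5 summed to 191.8 to 208.7 CPM in Con and 187.6 to 190.0 CPM in EX. For the 7 Schwann cell markers, of which 4 passed the filter and 3 were called lower, the sums were 78.6 to 86.5 CPM and 56.6 to 58.5 CPM. Of all genes tested, 8.80% were called lower and 9.11% higher. The groups did not overlap in any of these sums, and no marker on the lists was at 0 in all libraries. The part of these cells in the fall of Utrn was not tested.

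Utrophin and dystrophin are paralogues, so a read could in principle be counted for the wrong gene. The longest stretch that their longest open reading frames share exactly (GENCODE vM21 transcripts) is 25 bases, which is shown because it bounds how much of a 150-base read inside these frames the pair can have in common without a mismatch. Untranslated parts were not compared. It starts at base 9737 of the 11037 bases of the Dmd frame and at base 9023 of the 10293 bases of the Utrn frame.

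Dmd and Utrn: cctttgggggcagtaacattgagcc

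The frames of the other member pairs share at most 14 bases. The deposited counts of all 8 members were whole numbers in every library, with no decimals allowed, whereas 4.18% to 4.44% of all values in a library, given to at most 2 decimals, were not whole.

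Per transcript length Utrn fell, while Dmd was at 15.4 ± 0.991 FPKM in Con and 15.2 ± 0.490 FPKM in EX. On the FPKM scale the ratio of Dmd to Utrn was 1.52, 1.63 and 1.80 in Con and 2.15, 2.21 and 2.16 in EX. The EX ratios all exceeded the Con ratios, which restates the fall of Utrn and is not a second result. In the same libraries Utrn had the lowest FPKM of the 8 genes, at 9.38 ± 0.210 (SD, n = 3) in Con and 7.01 ± 0.329 in EX.

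Dystroglycan is the membrane receptor of the complex, cut from 1 precursor into a part outside the cell and a part that spans the membrane. Its gene Dag1 (13138) was at 433.1, 413.8 and 399.1 CPM in Con and at 433.8, 442.9 and 453.5 CPM in EX. The groups did not overlap, but the highest Con library and the lowest EX library nearly touched. The log2 fold change was 0.09 (95% interval 0.02 to 0.17, edgeR adjusted p = 0.077). Without Con 1 it was 0.12 and passed the test (edgeR adjusted p = 0.0087).

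The sarcoglycans are the membrane partners of dystroglycan, and several of them assemble into 1 unit in skeletal muscle. Sgcb (24051), beta-sarcoglycan, was at 138.9, 150.5 and 148.2 CPM in Con and at 167.3, 158.5 and 163.3 CPM in EX. The EX libraries were all higher. The log2 fold change was 0.16 (standard error 0.04, 95% interval 0.07 to 0.25, edgeR adjusted p = 0.0072). Sgcb kept its sign in all 16 alternative fits and its call in 13. The exceptions were the 3 limma fits on FPKM or TPM, with adjusted p between 0.19 and 0.36.

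Sgca (20391), alpha-sarcoglycan, was at 211.6, 183.0 and 177.0 CPM in Con and at 178.9, 192.6 and 185.5 CPM in EX. Con 1 stood above the other 5 libraries, and the groups overlapped. With a log2 fold change of -0.04 (95% interval -0.14 to 0.07, edgeR adjusted p = 0.68), Sgca had no settled sign, since it was 0.04 without Con 1. Sgcd (24052), delta-sarcoglycan, was at 98.3, 99.7 and 97.2 CPM in Con and at 101.6, 101.6 and 94.9 CPM in EX. Its log2 fold change was 0.01 (95% interval -0.08 to 0.10, edgeR adjusted p = 0.87), with overlapping groups.

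**Figure D2:**
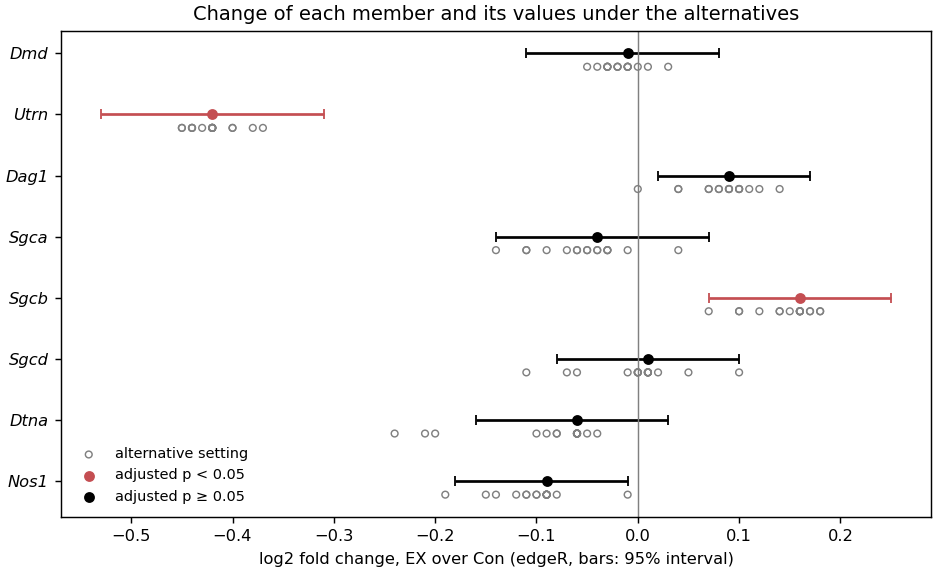
Log2 fold change of EX over Con for each complex gene (horizontal axis), with filled points and bars for edgeR's estimate and 95% interval, red where the adjusted p was under 0.05, and open circles for the 16 alternative fits. Utrn stays between -0.45 and -0.37, Sgcb stays above 0, and the circles of Dmd, Sgca and Sgcd fall on both sides of 0.

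A ratio of sarcoglycans within a library does not depend on its depth. Sgcb over Sgcd, in FPKM, was 3.42, 3.72 and 3.77 in Con and 4.07, 4.03 and 4.20 in EX. Sgca over Sgcb was 3.99, 3.18 and 3.12 in Con and 2.80, 3.10 and 2.94 in EX, also without overlap. The gap between the lowest Con and the highest EX library in this second ratio was narrow. In counts the groups overlapped, with 2822 for Sgca and 2363 for Sgcb in Con 3 and 3025 and 2490 in EX 2. The length by which Sgca counts were divided was 1337 bases in EX 2 and 1302 to 1304 bases in Con. Sgca over Sgcd overlapped between the groups, at 12.4 ± 1.06 (SD, n = 3) in Con and 12.1 ± 0.584 in EX.

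On the inner face, alpha-dystrobrevin (Dtna, gene 13527) links dystrophin to syntrophins. It was at 113.8, 111.0 and 103.9 CPM in Con and at 107.7, 102.5 and 104.1 CPM in EX, with overlapping groups. The log2 fold change of its counts was -0.06 (95% interval -0.16 to 0.03, edgeR adjusted p = 0.35). On the log2(FPKM + 0.1) scale, on which changes of weakly expressed genes come out too small, it was -0.21 and passed the test (limma adjusted p = 0.042). That fit used no TMM scaling, and its median log2 fold change over all genes was -0.06. The mean length by which Dtna counts were divided was 6.2% longer in EX.

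Nos1 (18125) encodes neuronal nitric oxide synthase, which syntrophin and dystrophin hold at the membrane and whose product widens vessels in working muscle. It was at 150.6, 147.3 and 147.8 CPM in Con and at 139.0, 141.2 and 137.2 CPM in EX. All EX libraries were lower than all Con libraries. The log2 fold change was -0.09 (95% interval -0.18 to -0.01, edgeR adjusted p = 0.099). With only genes of at least 5 FPKM tested, it was -0.11 and passed (edgeR adjusted p = 0.046), while with an offset for gene length it was -0.01 (edgeR adjusted p = 0.94).

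Groups did not overlap for 4 of the 8 members (Utrn, Dag1, Sgcb and Nos1), beside 33.7% of all genes tested. A single gene compared by exact permutation of 3 against 3 mice cannot go below p = 0.1. Mice varied little in these transcripts. The coefficient of variation within a group ran from 1.18% for Nos1 in Con to 9.72% for Sgca in Con. The summed CPM of the 8 genes was 1205.5 to 1277.1 in Con and 1247.4 to 1255.4 in EX, with the EX range inside the Con range.

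Levels of different genes can be compared only per length, for which the authors' FPKM were used. In Con the order from high to low was Sgca (148.4 ± 13.2 FPKM, SD, n = 3), Dag1 (82.1 ± 2.73), Sgcb (43.5 ± 2.15), Dtna (34.6 ± 2.34), Nos1 (16.1 ± 0.104), Dmd (15.4 ± 0.991), Sgcd (12.0 ± 0.114) and Utrn. Nos1 and Dmd overlapped there and were the only neighbours in the order that did. In EX the FPKM were 137.3 ± 2.08 for Sgca, 84.2 ± 1.85 for Dag1, 46.7 ± 1.67 for Sgcb, 30.0 ± 0.963 for Dtna, 15.2 ± 0.490 for Dmd, 14.5 ± 0.148 for Nos1 and 11.4 ± 0.401 for Sgcd. No neighbours overlapped in EX, where Dmd ranked above Nos1.

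**Figure D3:**
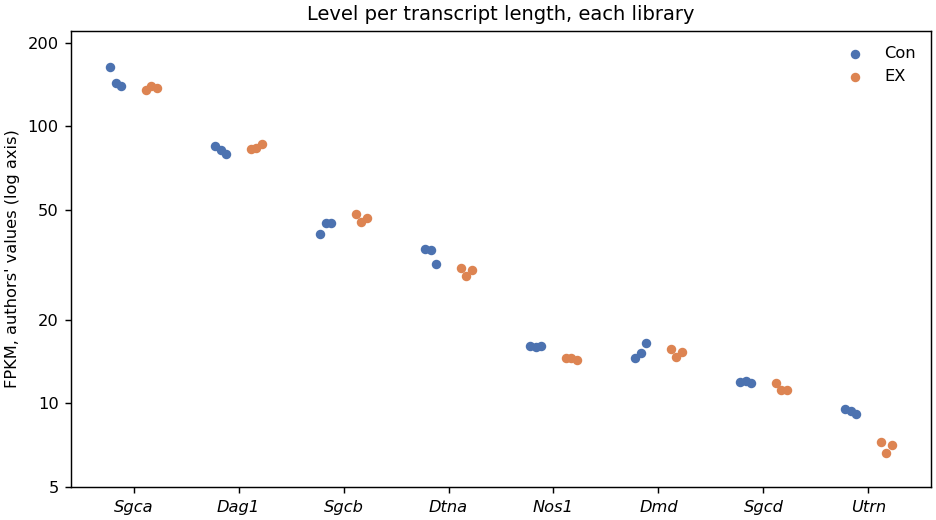
Authors' FPKM of each complex gene in the 3 Con (blue) and 3 EX (orange) libraries on a log axis, with genes ordered by their Con mean. Sgca is at the top, at 135.1 FPKM or more, and Utrn at the bottom, at 9.59 FPKM or less. Nos1 and Dmd overlap in Con. In EX the lowest Dmd value, 14.7 FPKM, lies just above the highest Nos1 value, 14.6 FPKM.

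An FPKM depends on the length by which a count was divided. Counts per FPKM give back that length for each library, and how the authors set it is not given in the sources used here. For Dag1, Sgcb and Nos1 it was nearly the same in all libraries, at 5135 to 5144, 3401 to 3414 and 9360 to 9376 bases. For Sgca it ran from 1302 to 1337 bases and for Sgcd from 8253 to 8792 bases, with overlapping groups, so the delta-sarcoglycan FPKM rests on a model longer than the longest coding transcript in GENCODE vM21, of 2450 bases.

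The implied lengths of Dmd, Dtna and Utrn also varied between libraries. Dmd had 5418, 5249 and 5132 bases in Con and 5055, 5089 and 5085 bases in EX, far under its longest transcript of 14910 bases. The Dmd lengths of the groups did not overlap. Dtna had 3172, 3151 and 3329 bases in Con and 3450, 3431 and 3371 bases in EX, again without overlap. Its mean length was 6.2% longer in EX, and FPKM divides the count by that length. Utrn had 5513, 5322 and 5535 bases in Con and 5212, 5324 and 5176 bases in EX, and its groups overlapped. Among 7187 genes with at least 5 FPKM, the lengths of the groups did not overlap for 7.36%. If the length is a mean over transcript forms, it carries the mix of forms, and this was not tested.

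**Figure D4:**
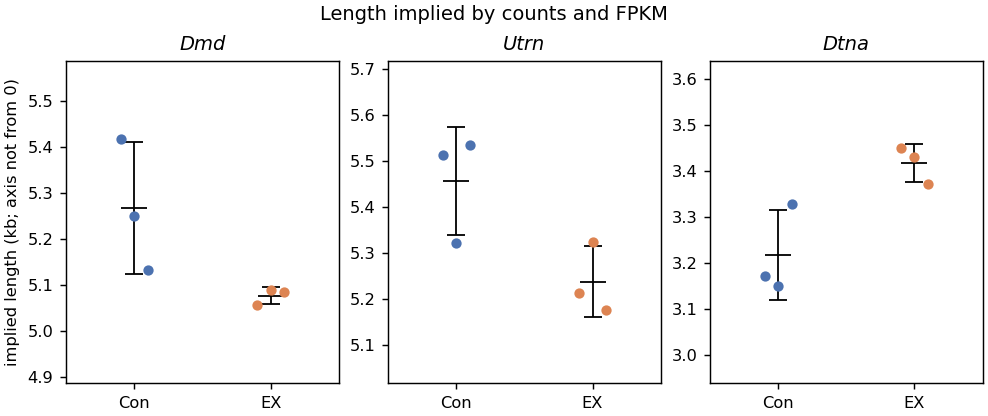
Length implied by dividing counts by FPKM and depth, in kilobases, for Dmd, Utrn and Dtna in the 3 Con (blue) and 3 EX (orange) libraries, with black bars for the mean ± SD; axes span 0.7 kb and do not start at 0. Dmd lies lower in EX and Dtna higher, with no overlap, while Utrn overlaps.

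Several dystrophin proteins start from separate promoters spread over the gene. Since the length implied for Dmd lay between short and full forms, the 250 bases before each of its RefSeq starts (GRCm38.p6, plus strand) are shown, the first at chrX:82948620-82948869 and the second at chrX:85048045-85048294. Capitals mark E-boxes (CANNTG) in the first and GC boxes (GGGCGG, either strand) in the second.

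Dmd start 1: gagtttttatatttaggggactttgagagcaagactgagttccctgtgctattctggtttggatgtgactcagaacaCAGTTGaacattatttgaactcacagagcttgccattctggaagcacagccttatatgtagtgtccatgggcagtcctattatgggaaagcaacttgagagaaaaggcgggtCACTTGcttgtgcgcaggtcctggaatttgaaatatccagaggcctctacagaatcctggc
Dmd start 2: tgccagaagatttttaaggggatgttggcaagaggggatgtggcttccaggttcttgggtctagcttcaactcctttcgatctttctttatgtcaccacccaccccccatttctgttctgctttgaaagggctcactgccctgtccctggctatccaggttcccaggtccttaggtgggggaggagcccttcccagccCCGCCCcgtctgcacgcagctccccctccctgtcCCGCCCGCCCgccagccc

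The first has 45.2% G and C, 2 E-boxes and 0 GC boxes. The second has 60% G and C, 0 E-boxes and 3 GC boxes, of which neighbouring matches overlap. An E-box was present in 66.2% and a GC box in 32.7% of 32851 windows of this kind. TTCCGG and CATTCC, searched on both strands and found in 12.0% and 12.6% of all windows, were in neither. A match is a description of the letters alone. RefSeq windows were read by symbol for 7 of the 8 members, while Dtna was left out of this step and is not reported here.

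The other proteins around the complex were followed through lists of 68 genes, of which 60 passed the filter. Of these, 6 were called higher and 10 lower, beside 9.11% and 8.80% of all genes tested, and their median log2 fold change was 0.03. Among 11 other subunits, 7 were tested and 1 was called, lower, beside 8.80% of all genes tested. Sspn, sarcospan, which joins the sarcoglycans, gave a log2 fold change of 0.03 (95% interval -0.05 to 0.12, edgeR adjusted p = 0.64). Sntb2 and Sntg2 were under the filter, and Sgcz and Sntg1 were not found by symbol among the 16759 genes listed.

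The subunit that fell was Drp2, another relative of dystrophin that belongs to the dystroglycan complex of myelinating Schwann cells with periaxin. Drp2 was at 10.8, 11.4 and 10.2 CPM in Con and at 7.95, 6.43 and 7.11 CPM in EX. The groups were well apart. Its log2 fold change was -0.59 (standard error 0.11, edgeR adjusted p = 0.00027). Prx, the periaxin gene, fell by 0.74 and Mbp, a myelin gene, by 0.44 on the log2 scale, each called by edgeR. The part of Schwann cell content in the fall of Drp2 was not tested.

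Alpha-dystroglycan binds laminin through a sugar chain built by a series of enzymes. Of 18 genes for this pathway, 17 were tested, 14 had a log2 fold change above 0 and 3 below, beside 5412 and 5471 of all 10883 genes, and the median was 0.07. The only gene of the pathway that passed the test, beside 9.11% of all genes called higher and 8.80% called lower, was B4gat1, which primes the laminin-binding chain, at 33.2 ± 1.28 CPM (SD, n = 3) in Con and 38.2 ± 2.12 CPM in EX (log2 fold change 0.20, edgeR adjusted p = 0.018). That call was lost without Con 1, EX 2 or EX 3, with edgeR adjusted p between 0.062 and 0.11, and with DESeq2 (adjusted p = 0.088) and the 3 limma fits (0.13 to 0.20), or 7 of 16 alternatives.

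The matrix ligands and neighbouring proteins of the membrane and cytoskeleton had the most calls, with 2 of 19 higher and 7 of 19 lower, beside 9.11% and 8.80% of all genes tested, and a median of -0.01. Agrn (agrin, a heparan sulfate proteoglycan that binds dystroglycan) fell from 44.6 ± 1.93 to 37.0 ± 0.831 CPM (SD, n = 3; log2 fold change -0.27, edgeR adjusted p = 0.00073). Lamb1 (laminin beta 1) fell by 0.26 on the log2 scale, to 25.9 ± 1.71 CPM (edgeR adjusted p = 0.0048). Ank2 (ankyrin B, which helps to keep dystrophin and dystroglycan at the membrane) fell by 0.21, to 47.6 ± 2.07 CPM (edgeR adjusted p = 0.0041). Aqp4 (a water channel of the fibre membrane) rose from 38.3 ± 0.844 to 45.5 ± 3.09 CPM (log2 fold change 0.25, edgeR adjusted p = 0.0022), a call lost in the 3 limma fits (adjusted p = 0.10 to 0.16). Also called lower were Lama2, Lamc1, Hspg2 and Plec, and higher Cav3. Of these calls, Lama2 was lost in 9 of 15 alternatives, Cav3 in 8 of 16, Lamc1 in 7 of 16, Plec in 4 of 16 and Hspg2 in 1 of 16.

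Gene length moved with these calls. Among the 1615 genes of at least 5000 bases by implied length, 20.1% were called lower and 6.2% higher, while among the 4150 genes under 2000 bases 4.8% were lower and 11.7% higher. With an offset for length in edgeR, Agrn (-0.20), Lamb1 (-0.21), Drp2 (-0.53) and Utrn (-0.38) were still called lower, and 5 partner genes in all. Lama2, Lamc1, Hspg2, Plec and Ank2 were no longer called, with values between -0.13 and 0.00, and neither was Cav3, at 0.13. Called higher in that fit were Dag1, at 0.14, and Itga7, Dysf and Ank3, which made 8 partner genes higher. Nos1, at 9360 to 9376 bases, was at -0.01, as given above. Sgcb was 0.17 in that fit and remained called (edgeR adjusted p = 0.0039).

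At the neuromuscular junction, where utrophin is concentrated, 2 of 10 genes were called higher and 1 lower, beside 9.11% and 8.80% of all genes tested, with a median of 0.05. Musk, the receptor kinase that agrin activates through Lrp4, was at 39.2, 38.0 and 43.3 CPM in Con and at 55.9, 49.5 and 56.1 CPM in EX. All EX libraries were higher, with a log2 fold change of 0.42 (standard error 0.06, edgeR adjusted p = 5.5e-06). Chrnd, a subunit of the acetylcholine receptor, was low and fell from 3.78 ± 0.251 to 2.33 ± 0.242 CPM (SD, n = 3; log2 fold change -0.70, edgeR adjusted p = 0.0042). Chrna1, the subunit that binds acetylcholine, was higher by 0.23 (edgeR adjusted p = 0.037), a call lost in 10 of 15 alternatives. They were the fits without Con 2, Con 3, EX 2 or EX 3, the replicate block, DESeq2, totals without the 20 most abundant genes and the 3 limma fits, with adjusted p from 0.052 to 0.24. Utrn and Musk, both junctional in adult fibres, thus moved in opposite directions in these libraries.

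Downstream of Nos1, nitric oxide activates guanylate cyclase and then protein kinase G. Of 10 genes listed for this pathway, 7 were tested, 1 was called higher and 1 lower, beside 9.11% and 8.80% of all genes tested, and the median was -0.18. Prkg1, protein kinase G, was at 38.4, 37.8 and 39.4 CPM in Con and at 28.9, 29.0 and 28.8 CPM in EX. The EX values were nearly equal and far under Con, with a log2 fold change of -0.42 (standard error 0.06, edgeR adjusted p = 3.6e-06). Dynll1, a dynein light chain that also binds neuronal nitric oxide synthase, rose from 15.9 ± 1.20 to 21.2 ± 2.82 CPM (SD, n = 3; log2 fold change 0.41, edgeR adjusted p = 0.0011), a call lost with limma on TPM (adjusted p = 0.056). The cyclase subunits Gucy1a1 and Gucy1b1 had log2 fold changes of -0.18 and -0.23 (edgeR adjusted p = 0.10 and 0.080). Prkg1 is strongly made by smooth muscle, whose genes moved both ways, with Myh11 called lower by 0.30 and Acta2 called higher by 0.15 on the log2 scale. The part of smooth muscle in the fall of Prkg1 was not tested.

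**Figure D5:**
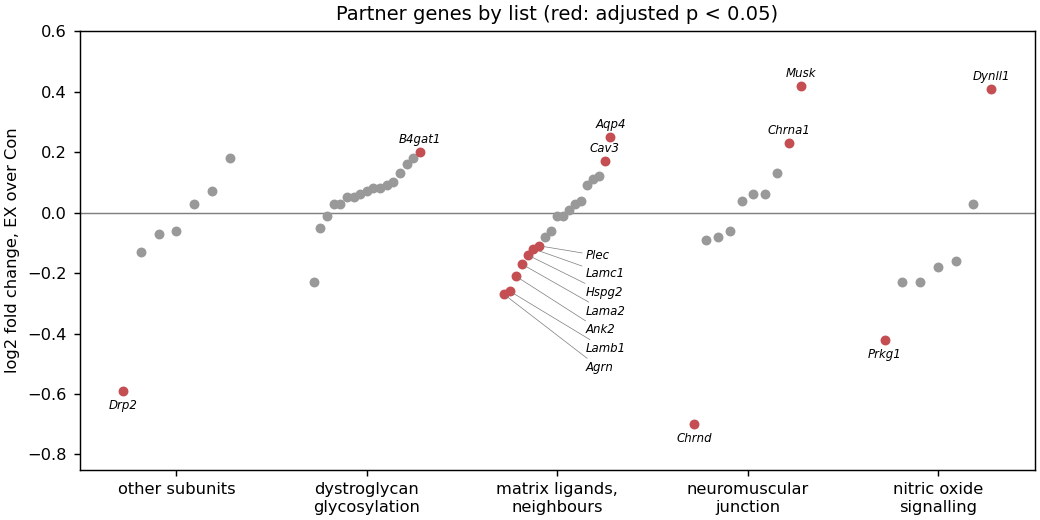
Log2 fold change of EX over Con (vertical axis) for each of the 60 tested partner genes, grouped by list, with red points and names where edgeR's adjusted p was under 0.05. Drp2 and Chrnd lie lowest, Musk and Dynll1 highest, and most of the glycosylation genes lie a little above 0.

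Over all 10883 genes tested, the patterns most like that of Utrn across the 6 libraries were those of Pfkfb3, a regulator of glycolysis (log2 fold change -0.43), and Pck2, the mitochondrial phosphoenolpyruvate carboxykinase (-0.40), with root mean square differences of mean-centred log2 CPM of 0.028 and 0.030. For Sgcb they were those of Pdlim5, a Z-disc protein (log2 fold change 0.14), and Cldn12, a claudin (0.17), with differences of 0.013 and 0.016. These are likenesses over 6 libraries in 2 groups and nothing more.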

How the data were processed

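Total RNA of 3 Con and 3 EX mice was sequenced by the authors as 150-base pairs on the DNBseq platform. The study's methods name HISAT, GRCm39 and DESeq, while the submitters' processing notes name cutadapt, featureCounts, MultiQC and GRCm38.p6. The authors deposited estimated counts, not normalized, and FPKM and TPM values made from them, for each gene and library. Another 6 columns of group means were not used. The files give no positions, and strand handling is not given in the sources used here.

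Counts were rounded and compared with edgeR 4.0.16 (glmQLFit, glmQLFTest, TMM) in R 4.3.3 for the 10883 of 16759 genes whose mean over the libraries reached 1 FPKM, at an adjusted p-value of 0.05 with no fold limit. The common biological coefficient of variation was 0.0328. FPKM set levels between genes. Implied length is count divided by FPKM and library total. Motifs were searched in RefSeq windows of 250 bases, shared runs in GENCODE vM21 transcripts.

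Named were all members, Sspn, up to 4 called genes with the largest change per partner list, and the 2 nearest patterns for each called member. Genes named beyond this (Lama2, Lamc1, Hspg2, Plec, Cav3, Gucy1a1, Gucy1b1, Itga7, Dysf, Ank3, and the markers Prx, Mbp, Myh11, Acta2, Rgs5, Myh7, Col1a1, Col3a1, Dcn, Pdgfra, Myod1, Pax7, Myh3, Myh8 and Mymk) and the slow-fibre list were added once their values had been seen. Some items are withheld and are not reported here. The members and lists were chosen with earlier results of these data known. Alternatives were DESeq2 1.42.0, limma 3.58.1 on log2(FPKM + 0.1), log2(FPKM + 1) or log2(TPM + 0.1), other filters and scalings, a length offset, a replicate block and leaving out each library. Other marker lists, in summed CPM of Con and EX with called genes, were macrophage (27.1 to 29.8 and 47.3 to 51.4, 5 higher), fibroblast (717.2 to 760.7 and 955.4 to 966.6, 2 higher), tendon (176.5 to 192.9 and 251.4 to 268.3, 3 higher), adipocyte (12.8 to 13.3 and 31.1 to 33.7, 3 higher), and satellite and regenerating fibre (55.1 to 58.6 and 87.5 to 89.8, 2 higher). Of the 7 skeletal muscle fibre markers 3 were higher and 1 lower, beside 9.11% and 8.80% of all genes tested. Of the 6 fibroblast genes, Col1a1 (mean 86.8 to 157.7 CPM) and Col3a1 (240.6 to 407.4 CPM) were called. Another 2, Dcn (332.2 to 310.6 CPM) and Pdgfra, were lower without a call. Most of the satellite and regenerating fibre sum was Myod1 (42.3 to 57.3 CPM), and Pax7 was not called. Myh3 (0.987 to 7.7 CPM), Myh8 and Mymk were under the filter and higher in EX.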

Additional observations from a re-analysis of the deposited data

How the results depend on the processing

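Against 1 complex member higher and 1 lower, the 3 limma fits on FPKM or TPM gave 0 higher. The length offset gave 2 higher (Dag1 and Sgcb). A filter of 5 FPKM and totals without the 20 most abundant genes gave 2 lower (Utrn and Nos1), both limma fits on FPKM gave 2 lower (Utrn and Dtna), and limma on TPM gave 3 lower. Leaving out a library gave 1 to 2 members higher, the second being Dag1 without Con 1, and 1 lower each time. Across 16 alternatives Sgcb ran from 0.07 to 0.18, Dag1 from 0.00 to 0.14, Nos1 from -0.19 to -0.01 and Dtna from -0.24 to -0.04, while Dmd, Sgca and Sgcd were never called. Against 6 partner genes higher and 10 lower, DESeq2 gave 3 higher, limma on FPKM 2 and limma on TPM 1, with 8, 10 and 15 lower. The length offset gave 8 higher and 5 lower and turned Plec to 0.00, and totals without the 20 most abundant genes gave 4 higher and 13 lower. Leaving out a library gave 4 to 7 partner genes higher and 7 to 12 lower. The cause of these differences was not tested.

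Over all genes, 50.8% of 1949 calls were higher in EX. That share was 37.7% with totals without the 20 most abundant genes, 28.4% with limma on log2(FPKM + 0.1), 28.5% on log2(FPKM + 1) and 16.8% on TPM, and DESeq2 called 1228 genes. Libraries with the same number deviated together no more than others (correlations -0.084, -0.052 and -0.073). The labels do not say whether the numbers pair the mice. Correlations from 3 libraries per group cannot settle it, since a small shared effect could go unseen. With the replicate block, 1 member was higher and 1 lower, and 1782 genes were called in all.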
